A study of Mus musculus with 20 samples.

Results

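A group of 9 genes that encode cytoplasmic RNA-binding regulators of embryonic stem cells (ESCs) were followed through an RNA immunoprecipitation sequencing (RIP-Seq) experiment on the Tet proteins. The 9 genes, Lin28a, Trim71, Pum2, Igf2bp1, Igf2bp3, Elavl1, Fmr1, Fxr1 and L1td1, were chosen by name, and all 9 were present among the 23284 genes of every library and passed the filter on low counts. The experiment comprised 20 libraries from 3 lines of mouse ESCs. In the Tet1 line and the Tet2 line the endogenous gene carried a C-terminal triple tag (Flag, HA and Twin-Strep), and in the Tet2dRBD line the tagged Tet2 lacked its RNA-binding domain. All 3 lines were made by CRISPR knock-in in WT ESCs, were picked as clones and were grown on gelatin with leukemia inhibitory factor. How many clones stood behind each line was not given in the sources used here. RNA recovered with an anti-Flag antibody (IP) was set against total RNA of the ESCs (input), in 2 pairs for Tet1, 4 for Tet2 and 4 for Tet2dRBD. The IP was made from a cytoplasmic extract according to the methods, so that binding to the tagged protein and a difference between cytoplasmic and total RNA cannot be told apart in these ratios. Control precipitations with IgG were not analysed here. In such bulk samples, fewer cells of a type and less RNA per cell cannot be told apart either.

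The proteins these genes encode bind messenger RNAs and set how long they last and how much they are translated. Lin28a blocks the maturation of let-7 microRNAs, which in turn repress Lin28a and Trim71 and accumulate as ESCs differentiate. Trim71, a TRIM-NHL protein, and Pum2, a Pumilio protein, repress target mRNAs through their 3′ untranslated regions (3′ UTRs). Igf2bp1 and Igf2bp3 bind and stabilize mRNAs, Elavl1 (HuR) stabilizes mRNAs with AU-rich elements, and Fmr1 and Fxr1 belong to the fragile X family of translational regulators. L1td1 is a domesticated retrotransposon protein expressed in pluripotent cells. The question posed to the data was how abundant the mRNAs of these regulators were, and whether they were recovered with Tet1, Tet2 or Tet2dRBD above their input level.

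The let-7 microRNAs connect several of these genes, and the sites they could pair with are shown because they divide the 9 genes. Mature let-7a and let-7g of the mouse (RefSeq, GRCm38.p6) share the seed, bases 2 to 8, given in capitals.
mmu-let-7a-5p: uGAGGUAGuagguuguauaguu
mmu-let-7g-5p: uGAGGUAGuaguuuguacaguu
The letters complementary to this seed, CTACCTC, were searched on the sense strand of the longest coding transcript of each gene (gencode vM1, mm9). They were found in 4319 of 22611 transcripts (19.1%), and in 27.3% of the 10697 transcripts whose length lay within the range of the 9 genes, 2323 to 8378 bases. Among the 9 genes they were found in 5. The 3′ UTR matches are given with the match in capitals and its first position in the transcript.
Lin28a, position 1639: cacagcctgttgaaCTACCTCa
Lin28a, position 2277: agatcgccacaaacCTACCTCa
Trim71, position 3986: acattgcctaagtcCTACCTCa
Trim71, position 4082: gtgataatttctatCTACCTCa
Igf2bp1, position 3756: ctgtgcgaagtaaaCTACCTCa
Igf2bp1, position 6177: agcagtgctattaaCTACCTCa
Igf2bp1, position 6771: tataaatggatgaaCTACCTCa
Igf2bp1, position 7394: cttttggttttaatCTACCTCt
Igf2bp3, position 2771: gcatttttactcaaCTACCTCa
One further match lay in the coding sequence of Trim71 and 1 in that of Elavl1. The transcripts of Pum2, Fmr1, Fxr1 and L1td1 held none in this window. The Pumilio motif TGTANATA was found in 21.5% of all transcripts and in 32.7% of those within the length range of the 9 genes. Among the 9 genes it was found 1 time in Lin28a and 2 times each in Pum2 and Fmr1. A match describes letters in a transcript and not a site in use.

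Before the ratios, the libraries were compared. The libraries held 21078995 to 37576638 expected counts. The 6 ESC markers looked at (Pou5f1, Nanog, Sox2, Zfp42, Esrrb and Dppa5a) summed to 12800 to 16400 TPM (transcript abundance scaled for length and depth) in the 10 inputs, and Pou5f1, the Oct4 gene, lay at 2000 TPM or more in each. Dppa5a alone lay at 8950 to 12300 TPM. Sox2 lay at 183 to 508 TPM, Nanog at 176 to 343 TPM, Esrrb at 165 to 394 TPM and Zfp42 at 15.3 to 75.8 TPM. The 5 fibroblast markers summed to 10.6 to 62.8 TPM, with Dcn at 0.19 TPM or less and Lum at 0.06 TPM or less. Of the other fibroblast markers, Thy1 lay at 8.43 to 35.8 TPM, Col1a1 at 1.2 to 17.8 TPM and Col1a2 at 0.78 to 9.24 TPM. The 5 markers of early differentiation summed to 20.1 to 20.4 TPM in the Tet1 inputs, 4.91 to 68.3 TPM in the Tet2 inputs and 30.3 to 89.0 TPM in the Tet2dRBD inputs. Over the 10 inputs T and Afp lay near 0, while Gata4 lay at 1.99 to 43.7 TPM, Gata6 at 1.74 to 26.1 TPM and Sox17 at 0.85 to 19.0 TPM. The part of these markers in the results below was not tested. The libraries fell into 3 sets, the first with replicate 1 of Tet2 and Tet2dRBD, the second with replicate 2 of both, and the third with their replicates 3 and 4 and all Tet1 libraries. Input replicate 4 of Tet2dRBD stood apart from replicate 3: their root mean square difference over 13710 genes was 0.27 on the log2(TPM + 1) scale, against 0.14 to 0.19 for the other comparable pairs of libraries. Its difference from replicate 3 correlated across these genes with the mean log2(IP/input) of Tet2 pairs 3 and 4 (Pearson's r of 0.35, as a description), and it held 2.17-fold more Fxr1 and 2.06-fold more L1td1 than replicate 3 by TPM. Whether it holds IP material was not tested. The Tet2dRBD ratios of Fxr1 and L1td1 and their differences from Tet2 are given with and without this pair.

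The 9 mRNAs covered a wide range of input levels. Lin28a was the most abundant, at 182 ± 54.7 TPM (mean and SD over the 10 inputs), above Igf2bp1 in 10 of 10 inputs. Igf2bp1 followed at 69.9 ± 30.0 TPM, above L1td1 in 9 of 10. L1td1 (47.6 ± 26.5 TPM), Elavl1 (38.1 ± 7.01 TPM) and Fxr1 (34.2 ± 18.1 TPM) formed a middle group whose neighbours did not separate, with L1td1 above Elavl1 in 7 of 10 inputs and Elavl1 above Fxr1 in 6 of 10. Pum2 lay at 22.4 ± 6.97 TPM, Igf2bp3 at 15.3 ± 3.16 TPM, Fmr1 at 9.36 ± 2.77 TPM and Trim71 at 6.67 ± 3.37 TPM. Igf2bp3 was above Fmr1 in 10 of 10 inputs, and Fmr1 above Trim71 in 8 of 10. The level of Igf2bp3 may include reads of a gene on the opposite strand, as given below. Trim71, the least abundant, still exceeded 34.2% of the 11784 genes with a mean input of at least 1 TPM.

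**Figure D1:**
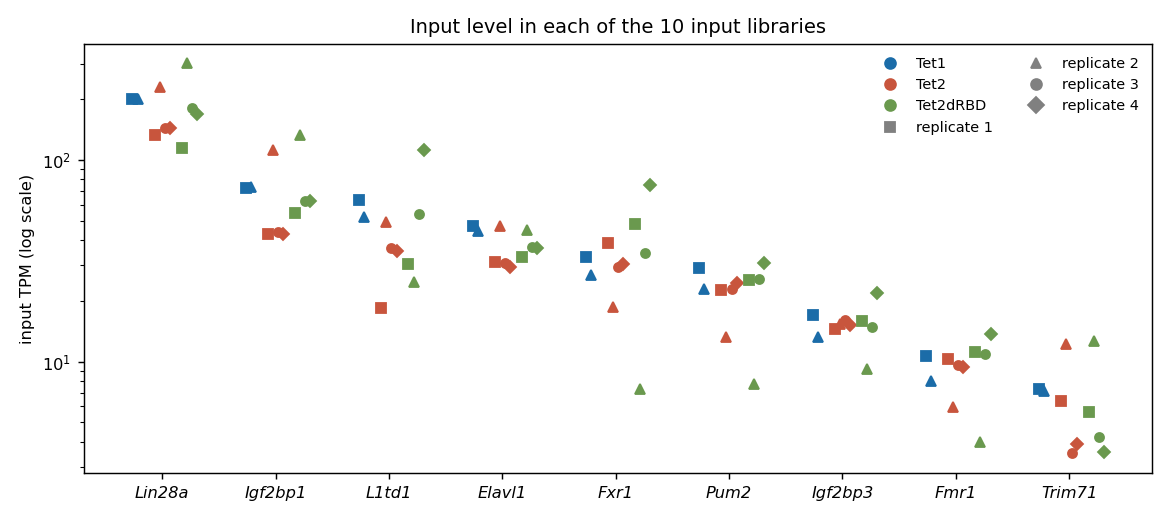
Input TPM (log scale) of the 9 genes in the 10 input libraries, coloured by line, with the marker giving the replicate. Lin28a lay highest, at 114 to 300.3 TPM, and Trim71 lowest, at 3.51 to 12.7 TPM. Fxr1 varied most, 10.2-fold between its highest and lowest input, and Elavl1 least, 1.59-fold.

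The Tet2dRBD input of replicate 2 held the lowest level of Fxr1, at 7.34 TPM, and its input of replicate 4 the highest, at 75.1 TPM. In the replicate 2 inputs of both Tet2 and Tet2dRBD, Lin28a, Trim71 and Igf2bp1 were at their highest level within the line. Relative to the other inputs of the line, Trim71 was higher by 1.27 and 1.34 and Igf2bp1 by 1.35 and 1.13 on the log2(TPM + 1) scale, which put both genes above 97.0% or more of the genes tested. In the same 2 libraries Pum2, Fmr1 and Fxr1 were lower, Fxr1 by -0.78 in Tet2 and by -2.61 in Tet2dRBD. Across genes, this difference rose with the GC content of the transcript, with Spearman's rho of 0.55 in Tet2 and 0.67 in Tet2dRBD, as a description across genes that share these libraries. GC content was 59.5% for Trim71, 50.8% for Igf2bp1 and 50.1% for Lin28a, against 39.2% for Fmr1, 42.2% for Pum2 and 43.2% for Fxr1. Elavl1, at 43.5% GC, was also at its highest in both replicate 2 inputs (by 0.60 and 0.33), and L1td1, at 47.8%, was higher in that of Tet2 (by 0.75) and lower in that of Tet2dRBD (-1.16). The part of GC content in the levels was not tested.

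Recovery in the IP was read in each pair as log2(IP/input) from TPM + 1. A gene was also counted where its IP exceeded its input in every pair of a line, without a test. In Tet1, 5 of the 9 genes lay above input in both pairs (Pum2, Igf2bp3, Fmr1, Fxr1 and L1td1) and the other 4 below in both (Lin28a, Trim71, Igf2bp1 and Elavl1), while 50.9% of all genes tested were above and 30.1% below. In Tet2, 6 were above input in every pair (Lin28a, Trim71, Pum2, Igf2bp1, Fxr1 and L1td1) and Elavl1 below, against 46.5% and 11.9% of all genes. In Tet2dRBD, Pum2 and L1td1 were above input in every pair and Elavl1 below, against 31.8% and 8.56% of all genes. These TPM ratios sat above 0 for most genes, with medians of 0.03 to 0.34 over the 10 pairs, and centred on the median of the pair only Pum2 and Fxr1 were above input in every Tet2 pair. Pum2 and L1td1 were above input in all 10 pairs, and Elavl1 was below in all 10. The share of all genes in all 10 pairs is not given here. L1td1 lay below the median of all genes in Tet2 pair 2 (0.055 against 0.341) and in Tet2dRBD pair 4 (0.025 against 0.155). Pum2 did so in Tet2dRBD pair 4 (0.128).

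**Figure D2:**
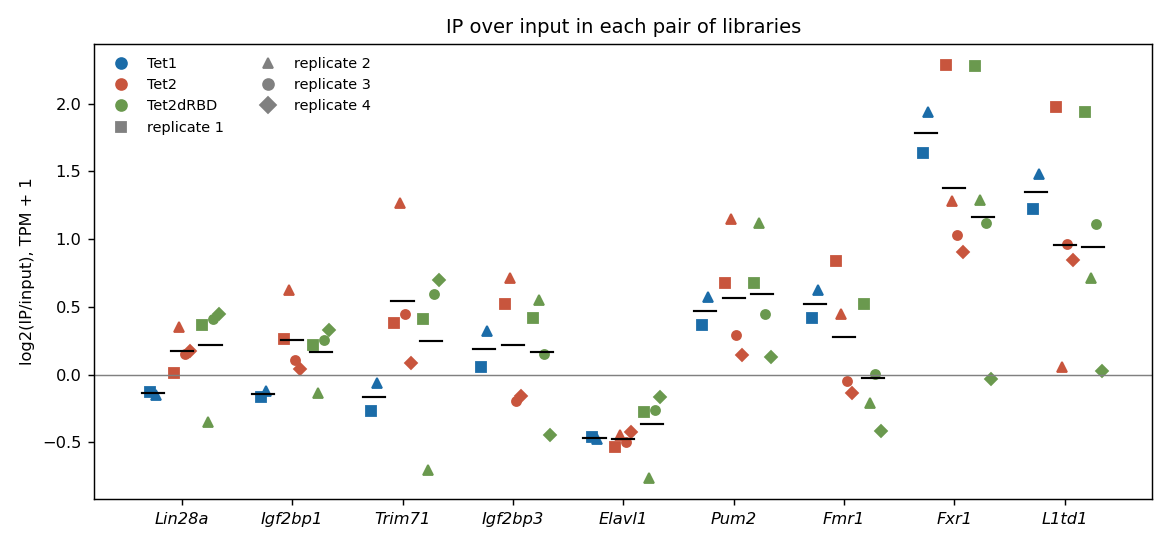
log2(IP/input) from TPM + 1 (vertical axis) for the 9 genes in each of the 10 pairs, coloured by line, with the marker giving the replicate and a black bar the mean of the line. Fxr1 and L1td1 reached 2.29 and 1.97 in Tet2 replicate 1, and all 10 values of Elavl1 lay between -0.76 and -0.16.

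Fxr1 was the mRNA most enriched in the IP. The gene lies on the plus strand of chromosome 3 (mm9, chr3:33919001-33968264), and its longest coding transcript has 17 exons. In the Tet1 pairs its level was 105 TPM in both IPs, against 33.1 and 26.7 TPM in the inputs. In the Tet2 pairs 1 to 4 it was 194, 46.7, 61.4 and 57.7 TPM in the IPs, against 38.9, 18.6, 29.5 and 30.4 TPM in the inputs. Every IP exceeded every input in these 2 lines. In the Tet2dRBD pairs it was 236, 19.4, 76.3 and 73.3 TPM in the IPs, against 47.9, 7.34, 34.6 and 75.1 TPM in the inputs, so that the groups overlapped and pair 4 showed no excess (log2(IP/input) of -0.04).

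In the edgeR fit, which took in every library and blocked on the pairs, the log2 ratio of Fxr1 was 1.67 (SE 0.43, adjusted p = 0.047) for Tet1 and 1.09 (SE 0.30, adjusted p = 0.02) for Tet2, and both passed the threshold of 0.05. For Tet2dRBD it was 0.93 (SE 0.31, adjusted p = 0.058), which did not pass. This value rested on single pairs, at 1.33 (adjusted p = 0.0076) without Tet2dRBD replicate 4, 0.60 (adjusted p = 0.21) without its replicate 1 and 0.26 (adjusted p = 0.26) with library set 3 only. The Tet2 call was lost without Tet2 replicate 1 (0.85, adjusted p = 0.075). The Tet1 call was lost in 7 of 19 alternatives, among them each in which 1 of its 2 pairs was left out. Fxr1 ranked above 96.3%, 94.4% and 94.2% of the genes tested in the 3 lines. Exons of Fxr1 share 178 bases with Dnajc19 on the opposite strand, whose mean log2(IP/input) was -0.28, -0.37 and -0.20 in the 3 lines. Strand use in counting was not given in the sources used here, so that reads from the shared bases cannot be told apart.

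L1td1, on chromosome 4 (chr4:98393425-98405171, plus strand), had the next highest ratios. In the Tet1 pairs it reached 148 and 147 TPM in the IPs, against 63.1 and 52.1 TPM in the inputs. In the Tet2 pairs it was 75.0, 51.1, 72.1 and 64.7 TPM in the IPs, against 18.4, 49.2, 36.5 and 35.5 TPM in the inputs. In the Tet2dRBD pairs it was 119, 41.4, 118 and 114 TPM in the IPs, against 30.3, 24.9, 54.1 and 112 TPM in the inputs. IPs and inputs did not overlap in Tet1 and Tet2 and overlapped in Tet2dRBD, where input 4 again lay at the level of the IP. The fitted log2 ratios were 1.22 (SE 0.43, adjusted p = 0.12), 0.67 (SE 0.31, adjusted p = 0.12) and 0.69 (SE 0.31, adjusted p = 0.14), none past the threshold. By DESeq2 the adjusted p was 0.028, 0.047 and 0.042. The Tet2 ratio was 1.03 (adjusted p = 0.025) without Tet2 replicate 2, whose IP and input differed least in that line, 0.71 (adjusted p = 0.0053) with library set 3 only and 0.38 (adjusted p = 0.38) without replicate 1. The Tet2dRBD ratio was 0.99 (adjusted p = 0.054) without its replicate 4, 0.40 (adjusted p = 0.43) without its replicate 1 and 0.29 (adjusted p = 0.17) with library set 3 only.

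Elavl1 went the other way. The gene lies on the minus strand of chromosome 8 (chr8:4284782-4325100). Its IPs held 33.9 and 31.7 TPM in Tet1, against 47.0 and 44.3 TPM in the inputs. In Tet2 the IPs held 21.2, 34.2, 21.6 and 21.8 TPM, against 31.1, 46.8, 30.8 and 29.6 TPM in the inputs. In Tet2dRBD the IPs held 27.3, 25.9, 30.7 and 32.4 TPM, against 33.1, 44.8, 37.0 and 36.4 TPM in the inputs. Every IP lay below its own input, and the groups did not overlap in Tet1 and Tet2dRBD. The fitted log2 ratio fell below 0 in all 3 lines, at -0.63 (SE 0.14, adjusted p = 0.034) for Tet1, -0.81 (SE 0.10, adjusted p = 0.0004) for Tet2 and -0.65 (SE 0.10, adjusted p = 0.0024) for Tet2dRBD. The Tet2 call held in 19 of 19 alternatives, the Tet2dRBD call in 18 and the Tet1 call in 10.

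**Figure D3:**
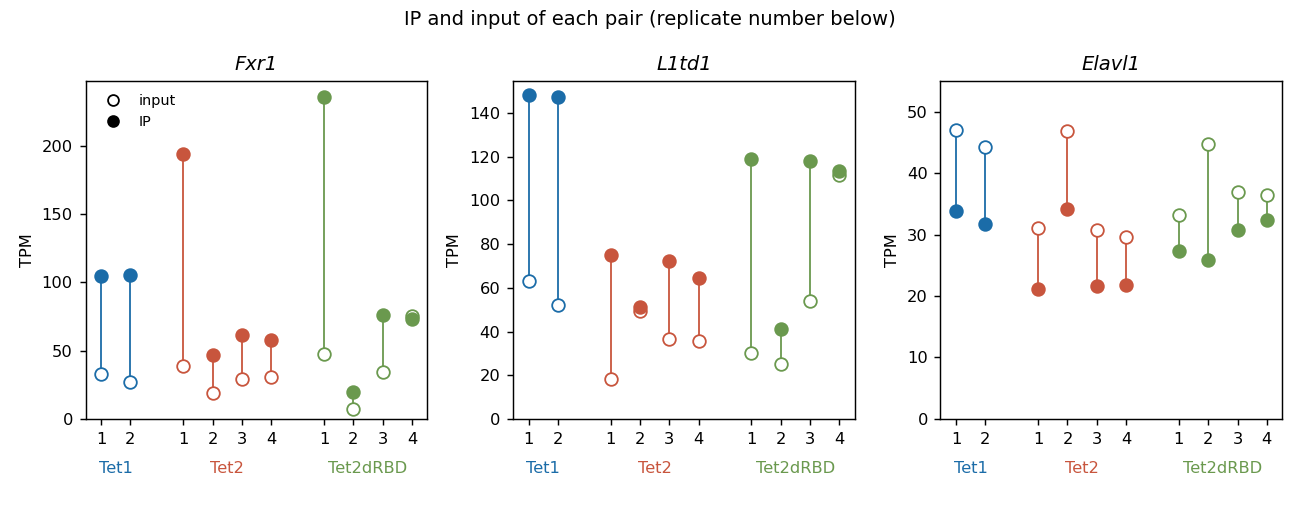
TPM in IP (filled) and input (open) of each pair for Fxr1, L1td1 and Elavl1, joined by a line. Fxr1 and L1td1 rise from input to IP, except Fxr1 in Tet2dRBD pair 4, at 73.3 TPM in IP and 75.1 TPM in input. The rise of L1td1 is small in Tet2dRBD pair 4 (114 TPM in IP, 112 TPM in input) and in Tet2 pair 2 (51.1 and 49.2 TPM). Elavl1 drops from input to IP in all 10 pairs.

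In all, 2 of the 9 genes passed the threshold for Tet1 (Fxr1 higher, Elavl1 lower), where 5.9% of 13710 genes did. For Tet2 the same 2 genes passed, against 33.1% of all genes, and for Tet2dRBD 1 gene, Elavl1, against 19.5%. The median fitted log2 ratio of the 9 genes was 0.05, -0.02 and -0.06 in the 3 lines, against -0.04, 0.003 and -0.02 over all genes. Of all genes called, 46.1%, 44.2% and 37.9% were higher in the IP, against 77.4%, 81.2% and 83.7% by limma on log2(TPM + 1), where the median of all genes lay at 0.08, 0.23 and 0.19.

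Pum2, the Pumilio protein, was above input in each of the 10 pairs by TPM. Its IPs held 34.5 to 37.7 TPM in Tet1, 27.4 to 36.6 TPM in Tet2 and 18.0 to 41.2 TPM in Tet2dRBD, against inputs of 22.8 to 29.1, 13.2 to 24.6 and 7.73 to 30.7 TPM. IPs and inputs did not overlap in Tet1 and Tet2. The fitted log2 ratios were 0.34 (SE 0.26), 0.28 (SE 0.18) and 0.35 (SE 0.19), with adjusted p of 0.48, 0.27 and 0.2. On the log2(TPM + 1) scale limma gave 0.57 for Tet2 (adjusted p = 0.026) and 0.59 for Tet2dRBD (adjusted p = 0.032). In edgeR, leaving out replicate 2 of the line lowered the ratio to 0.13 in both Tet2 and Tet2dRBD, and library set 3 only gave 0.023 and 0.022 (adjusted p = 0.81 and 0.82).

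For the let-7 antagonist Lin28a and for Igf2bp1, which were the most abundant, IP and input were close. Lin28a lay at 183.6 and 180.5 TPM in the Tet1 IPs against 200.6 and 200.03 TPM in the inputs, and its log2(IP/input) was -0.13 and -0.15 there. It was 0.01 to 0.35 in the 4 Tet2 pairs and -0.35 to 0.44 in the 4 Tet2dRBD pairs. Igf2bp1 lay between -0.17 and -0.12 in Tet1, 0.04 and 0.63 in Tet2, and -0.14 and 0.33 in Tet2dRBD. The sign in Tet2 depended on the scale, since the fitted log2 ratios there were -0.15 for Lin28a and -0.06 for Igf2bp1. The fitted 95% intervals of both genes included 0 in all 3 lines and lay within -0.65 and 0.20. Exons of Lin28a share 103 bases with the long noncoding RNA gene Gm13061 on the opposite strand.

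The pairs of Trim71 lay on both sides of 0. Its log2(IP/input) was -0.27 and -0.06 in Tet1, and 0.38, 1.27, 0.45 and 0.08 in Tet2. In Tet2dRBD it was 0.41, -0.70, 0.59 and 0.70. Replicate 2 thus gave the highest value of the Tet2 line, from 30.9 TPM in IP and 12.2 TPM in input, and the lowest of the Tet2dRBD line, from 7.42 and 12.7 TPM. The fitted ratios of -0.34, 0.29 and 0.03 did not pass the threshold (adjusted p = 0.56, 0.32 and 0.93).

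Fmr1 and Igf2bp3 also lay on both sides of 0. Fmr1 had log2(IP/input) of 0.42 and 0.63 in Tet1, 0.84, 0.45, -0.05 and -0.14 in Tet2, and 0.52, -0.21, 0.001 and -0.41 in Tet2dRBD. Igf2bp3 had 0.06 and 0.32 in Tet1, 0.52, 0.72, -0.20 and -0.16 in Tet2, and 0.42, 0.55, 0.15 and -0.45 in Tet2dRBD. Replicates 1 of both Tet2 lines were above 0 for both genes, and replicates 4 were below. No fitted ratio of either gene passed the threshold, and the adjusted p lay between 0.19 and 0.95. Exons of Igf2bp3 share 1531 bases with 2410003K15Rik on the opposite strand, against 178 bases shared by Fxr1 with Dnajc19. In the inputs 2410003K15Rik lay at 49.2 to 72.3 TPM, above the mean of 15.3 TPM of Igf2bp3. Reads from the shared bases cannot be told apart here, so that the level and ratios of Igf2bp3 are uncertain.

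**Figure D4:**
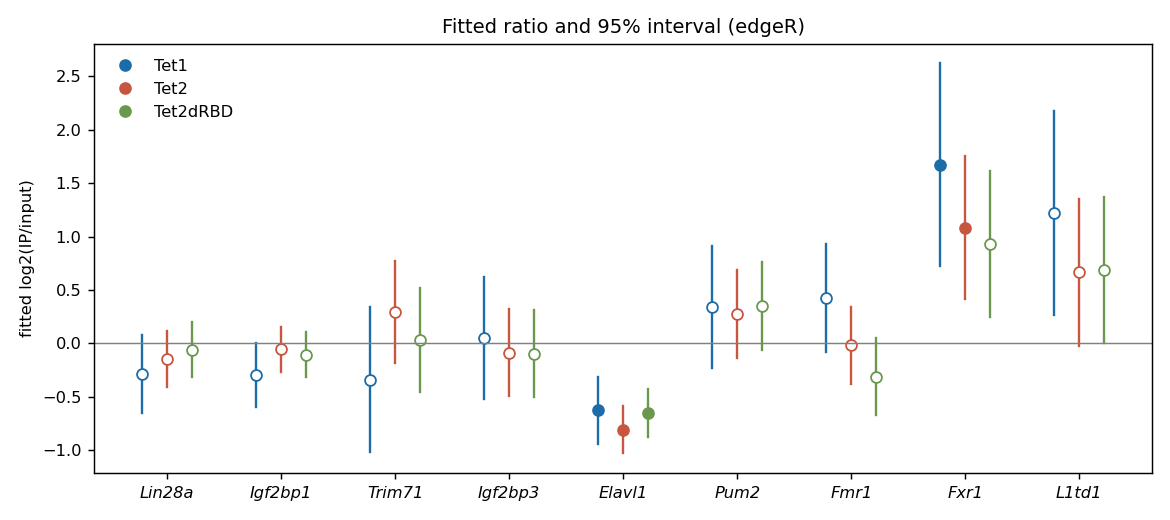
Fitted log2(IP/input) with its 95% interval (edgeR, pairs as blocks) for the 9 genes in the 3 lines. Filled symbols passed the adjusted p threshold of 0.05: Fxr1 in Tet1 (1.67) and Tet2 (1.09), and Elavl1 in Tet1 (-0.63), Tet2 (-0.81) and Tet2dRBD (-0.65).

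The fitted ratios were then set beside the sequence features. In Tet1 the 4 genes without a let-7 seed match (Pum2, Fmr1, Fxr1 and L1td1) had fitted log2 ratios of 0.34 to 1.67 and the 5 genes with one -0.63 to 0.05, so that the groups did not overlap. They overlapped in Tet2, at -0.02 to 1.09 and -0.81 to 0.29, and in Tet2dRBD, at -0.31 to 0.93 and -0.65 to 0.03. The split in Tet1 rested on Elavl1 (-0.63), whose only match lay in the coding sequence. Grouped by 3′ UTR matches alone, Elavl1 joins the genes without one, and the groups overlapped in Tet1 too. Over all genes tested, the median was -0.04 for 9983 genes without a match and -0.009 for 3127 genes with one in Tet1. It was -0.02 and 0.11 in Tet2, and -0.03 and 0.055 in Tet2dRBD. Over all genes the ratio was thus slightly higher with a match, opposite to the split of the 9 genes in Tet1. Across genes the ratio rose with the effective transcript length, with Spearman's rho of 0.20, 0.44 and 0.38 in Tet1, Tet2 and Tet2dRBD. Fxr1 and L1td1, the highest of the 9, had the shortest transcripts (2323 and 2942 bases), and Elavl1, the lowest in Tet2 and Tet2dRBD as in Tet1, had one of 6030 bases. The 3′ UTRs of Fxr1 and L1td1 held 255 and 364 bases, against 1370 (Trim71) to 6337 (Igf2bp1) in the other genes. The part of length in the split by seed match was not tested.

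Whether recovery depended on the RNA-binding domain was asked as the difference between the Tet2 and Tet2dRBD ratios. None of the 9 genes passed the threshold in edgeR, where 0.0219% of all genes did (3 genes, and 416 at an unadjusted p under 0.05). None had an unadjusted p under 0.05, and DESeq2 called 29 genes, none of the 9. The difference was 0.16 for Fxr1 (95% interval -0.79 to 1.11), -0.02 for L1td1 (-0.99 to 0.95), -0.16 for Elavl1 (-0.47 to 0.16) and 0.30 for Fmr1 (-0.21 to 0.81). With these intervals, a dependence on the domain of up to about 1 log2 unit in either direction was not detectable for Fxr1 and L1td1. The sign of the Fxr1 difference turned without Tet2dRBD replicate 4 (-0.25) and without Tet2 replicate 1 (-0.12). The L1td1 difference was -0.33 without Tet2dRBD replicate 4 and 0.34 without Tet2 replicate 2.

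The difference between Tet1 and Tet2 was tested in the same fit, with 0 genes called (0% of all genes) by edgeR, 517 at an unadjusted p under 0.05, 13 by DESeq2 and 6 by limma on log2(TPM + 1). None of the 9 genes had an unadjusted p under 0.05. Among the 9 genes the largest differences were -0.63 for Trim71 (95% interval -1.46 to 0.20), 0.59 for Fxr1 (-0.55 to 1.73), 0.55 for L1td1 (-0.62 to 1.72) and 0.44 for Fmr1 (-0.18 to 1.06). The L1td1 difference was 0.18 without Tet2 replicate 2 and 0.84 without Tet2 replicate 1. By TPM, Lin28a, Trim71 and Igf2bp1 had opposite signs in the Tet1 and Tet2 pairs. In the fit of all libraries, of these only Trim71 did (-0.34 and 0.29). Lin28a (-0.29 and -0.15) and Igf2bp1 (-0.295 and -0.06) lay below 0 in both lines there. For none of these genes was the difference between Tet1 and Tet2 separated from the spread between pairs in that fit. With library set 3 alone, which holds all Tet1 libraries, edgeR called 314 of 13379 genes, among them Fmr1 (0.70, adjusted p = 0.035). There 6 of the 9 genes had an unadjusted p under 0.05 in edgeR, as did 2918 of the 13379 genes.

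The input levels themselves were compared between lines with the library set as a block. Igf2bp1 was higher in Tet2dRBD than in Tet2 input, by 0.40 on the log2 scale (SE 0.06, adjusted p = 0.018), and was the only one of the 9 genes called, where 3.14% of 13310 genes were. Its input held 43.0 TPM in Tet2 and 54.8 TPM in Tet2dRBD in the first library set, 112 and 132 TPM in the second, and 43.8 and 43.1 against 62.6 and 62.4 TPM in the third. Tet2dRBD was higher within each set, by 0.35, 0.24 and 0.52 on the log2 scale. The call was lost in 6 of the 10 fits that left out 1 input and under the replicate block (0.40, adjusted p = 0.15). L1td1 differed by 0.54 (SE 0.34, adjusted p = 0.44), with 0.95 (adjusted p = 0.025) without Tet2 input 2, 0.99 (adjusted p = 0.028) without Tet2dRBD input 2 and 0.17 (adjusted p = 0.78) without Tet2dRBD input 4.

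Between Tet1 and Tet2 inputs, 3 of the 9 genes passed, where 31.5% of all genes did, and all 3 were higher in Tet1. Trim71 was higher by 0.89 (SE 0.14, adjusted p = 0.0018), with 7.33 and 7.19 TPM in the Tet1 inputs against 3.51 and 3.93 TPM in the Tet2 inputs of the same library set. Igf2bp1 was higher by 0.64 (SE 0.08, adjusted p = 0.0008), with 72.3 and 73.1 TPM against 43.8 and 43.1 TPM. Elavl1 was higher by 0.48 (SE 0.09, adjusted p = 0.0038), with 47.0 and 44.3 TPM against 30.8 and 29.6 TPM. Lin28a lay at 200.6 and 200.03 TPM against 143.6 and 144.6 TPM, a fitted difference of 0.38 (SE 0.15, adjusted p = 0.078). The samples of the 2 lines did not overlap within the set for any of these 4 genes, with 2 inputs each. The share of all genes without overlap is not given here. With library set 3 only, edgeR called 6477 of 12999 genes between these inputs. The inputs of Tet2 replicate 2, in another set, exceeded those of Tet1 for Trim71 (12.2 TPM), Igf2bp1 (112 TPM) and Lin28a (229 TPM), and without the block none of the 9 genes was called.

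**Figure D5:**
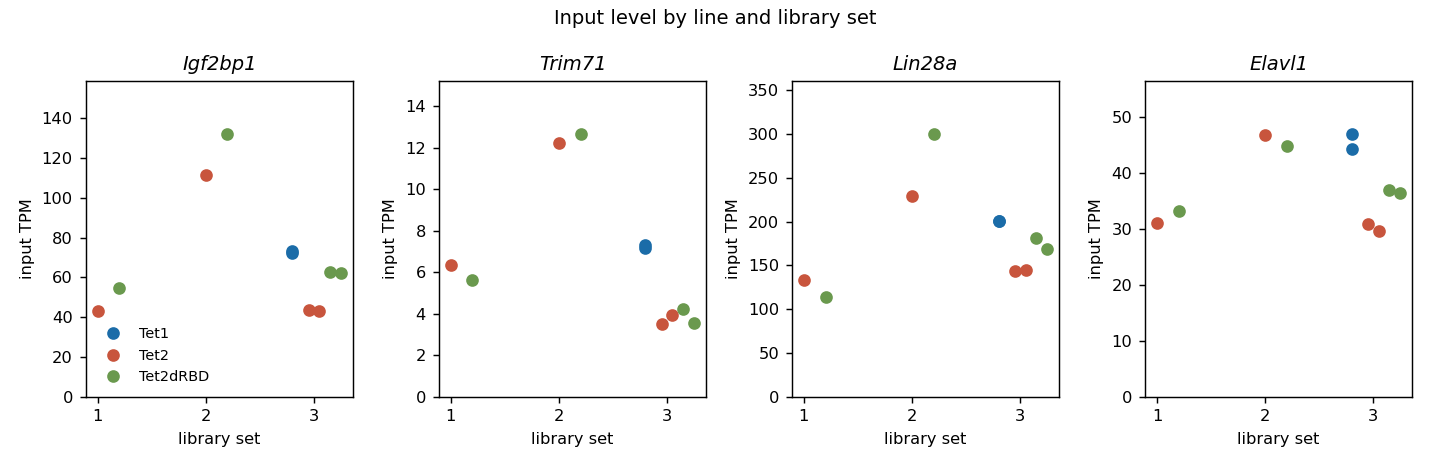
Input TPM of Igf2bp1, Trim71, Lin28a and Elavl1 by library set (horizontal axis) and line (colour), 1 point per input. Within set 3 the Tet1 points lie above the Tet2 points, at 72.3 and 73.1 against 43.8 and 43.1 TPM for Igf2bp1, while the set 2 points are the highest for Igf2bp1, Trim71 and Lin28a.

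The wider pathway was described by lists of related genes. Of 10 paralogs of the 9 genes, Fxr2, a fragile X family member, was higher in the IP of Tet2 (0.68, SE 0.12, adjusted p = 0.0025) and Tet2dRBD (0.42, SE 0.12, adjusted p = 0.035), and above input in all 10 pairs. Lin28b, the paralog of Lin28a, was higher in the Tet2dRBD IP (0.87, SE 0.27, adjusted p = 0.044), at a mean input of 2.89 TPM. Elavl2 was lower in the Tet2 IP (-0.50, SE 0.14, adjusted p = 0.023), and no paralog passed in Tet1. Over all genes, 5.9%, 33.1% and 19.5% were called in either direction in Tet1, Tet2 and Tet2dRBD. The median fitted ratio of the 10 paralogs was 0.19, 0.01 and 0.03 in Tet1, Tet2 and Tet2dRBD. Of 11 genes of the microRNA pathway, 0 passed in Tet1, 3 were higher in Tet2 and 1 in Tet2dRBD, where 5.9%, 33.1% and 19.5% of all genes were called in either direction. Those in Tet2 were Dicer1, which cuts the let-7 precursor (0.84, SE 0.18, adjusted p = 0.0063), Tnrc6a (0.48, SE 0.16, adjusted p = 0.041), and Zcchc6, a uridylyl transferase of let-7 precursors (2.02, SE 0.42, adjusted p = 0.0049). Zcchc6 was also the one in Tet2dRBD (1.77, SE 0.44, adjusted p = 0.019), at a mean input of 1.10 TPM. None of 7 known let-7 targets passed in any IP, and their median ratio was -0.15, -0.06 and -0.09. Of these targets, Mycn and Myc were higher in Tet2dRBD than in Tet2 input, and 5 of 7 (Mycn, Myc, Cdc25a, Arid3a and Arid3b) were higher in Tet1 than in Tet2 input, where 3.14% and 31.5% of all genes were called in either direction. Myc was higher by 0.86 (SE 0.08, adjusted p = 0.0028) and by 1.01 (SE 0.11, adjusted p = 0.0004).

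Among 14 partners in translation control, Pabpc1, the cytoplasmic poly(A)-binding protein, was higher in the IP of all 3 lines. Its fitted ratio was 2.85 (SE 0.43, adjusted p = 0.019) in Tet1, 1.98 (SE 0.30, adjusted p = 0.001) in Tet2 and 2.06 (SE 0.30, adjusted p = 0.0018) in Tet2dRBD. In Tet2, Cyfip1, an Fmr1 partner, was also higher (0.52, SE 0.14, adjusted p = 0.015), and 6 were lower (G3bp2, Syncrip, Ybx1, Stau1, Pabpc4 and Ddx6), where 33.1% of all genes were called in either direction. In Tet2dRBD, Syncrip (-0.42, SE 0.13, adjusted p = 0.042) and Stau1 (-0.56, SE 0.14, adjusted p = 0.023) were lower. The median ratio of the 14 partners was -0.10, -0.19 and -0.17.

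The genes whose ratios over the 10 pairs were most like those of each regulator were named by the root mean square difference, among 8458 other genes with a mean input of at least 5 TPM. For Fxr1 they were Dmtf1 (0.22), Smek1 (0.23) and Rg9mtd1 (0.24), all with mean ratios above 1.16 in each line. For L1td1 they were Topors (0.11), Llph (0.15) and Rbm34 (0.20). For Elavl1 they were Rer1 (0.07), Klf10 (0.08) and Golt1b (0.08), and for Pum2 Phtf2 (0.10) and Ankle2 (0.10). For Lin28a the nearest was 0610007L01Rik (0.07), for Igf2bp1 2310037I24Rik (0.08), for Trim71 Troap (0.17), for Igf2bp3 Mdm1 (0.13) and for Fmr1 Ythdc1 (0.22). Among the 9 genes themselves, Lin28a and Igf2bp1 were closest (0.16), followed by Igf2bp3 with Fmr1 (0.32), and Fxr1 and Elavl1 were farthest apart (1.95).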

How the data were processed

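The 20 RIP-Seq libraries were grouped by the sample labels. Per the submitters' processing notes and methods, the authors trimmed reads with Trimmomatic, used Bowtie2 and RSEM on mm9 with RefSeq, and deposited per gene an expected count, an effective length (other) and a score, the TPM with a pseudocount of 1 added, from which 1 was subtracted here. Versions and strand use were not given in the sources used here. Library totals were 21078995 to 37576638 expected counts.

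The members and the gene lists were chosen with earlier results of these data known. Rounded expected counts were fitted with edgeR 4.0.16 (TMM, quasi-likelihood, R 4.3.3) over all libraries, with a block per pair for the IP effects and per library set for the inputs. Genes needed 1 CPM in 2 libraries, which left 13710 for the IP fit and 13310 for the inputs. P-values were adjusted by Benjamini-Hochberg over all of them, and a gene was called under 0.05. SEs are the fitted value over the square root of F. The replicate numbers come from the labels. Deviations of IP and input of the same number from their group means correlated at 0.27 (Tet1), 0.62 to 0.86 (Tet2) and 0.58 to 0.84 (Tet2dRBD). The numbers were taken as pairs. For replicates 1 to 3 of both Tet2 lines the same number correlated best, but narrowly for Tet2 replicate 3 (0.799 against 0.767). For replicate 4 another number correlated better, at 0.797 against 0.784 in Tet2 and 0.734 against 0.584 in Tet2dRBD. The 2 Tet1 pairs mirror each other (0.271 and -0.271). These values thus do not settle the pairing of replicates 3 and 4 or of Tet1. Nothing says that replicates came from separate cultures, so p-values measure only the spread between these samples, which may be technical. The library sets follow how the deposited data were numbered and are not stated in the labels.

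Alternatives used DESeq2 1.42.0 and limma 3.58.1 on log2(TPM + 1) or log2(TPM + 0.1), no filter, no block, other library sets, replicates 3 and 4 merged, and leaving out each replicate. Fits were tested on simulated data. Named were the 9 genes, listed related genes where called, and for each of the 9 the 3 genes nearest in ratio (for 5 of them the nearest is given, and 1 gene is not reported here). Transcripts came from gencode vM1 and microRNAs from RefSeq.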

Additional observations from a re-analysis of the deposited data

Results flagged for a closer look

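In all, 54 groups of 4 values were looked at (TPM and log2(IP/input) of the 9 genes in Tet2 and Tet2dRBD). Of these, 12 held a sample far from the other 3 by Dixon's test, where chance gives about 1 in 20 independent groups. These groups were not independent, because the genes share libraries and the ratios come from the TPM values. That rate is therefore no measure for the count. In Tet2 input, replicate 2 stood above the others for Lin28a (229 TPM, others 133 to 145 TPM), Igf2bp1 (112 TPM, others 43.0 to 43.8 TPM) and Elavl1 (46.8 TPM, others 29.6 to 31.1 TPM). In Tet2dRBD input, replicate 2 did so for Igf2bp1 (132 TPM, others 54.8 to 62.6 TPM). In Tet2 IP, replicate 2 stood above the others for Trim71 (30.9 TPM, others 4.22 to 8.61 TPM), Igf2bp1 (173 TPM, others 44.4 to 51.7 TPM) and Elavl1 (34.2 TPM, others 21.2 to 21.8 TPM). Replicate 1 of the Tet2 IP stood above the others for Fmr1 (19.1 TPM, others 8.42 to 9.22 TPM) and Fxr1 (194 TPM, others 46.7 to 61.4 TPM). In Tet2dRBD IP, replicate 2 stood below the others for L1td1 (41.4 TPM, others 114 to 119 TPM) and replicate 1 for Lin28a (148 TPM, others 231 to 241 TPM). The log2(IP/input) of Lin28a in Tet2dRBD replicate 2 was -0.35, against 0.37 to 0.44 in the other pairs.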

How the results depend on the processing

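Precision was limited by 2 pairs for Tet1, 4 for each Tet2 line and the spread between library sets. The fitted IP ratio of Elavl1 kept its direction under every alternative in all 3 lines, as did those of Fxr1, L1td1 and Pum2. Of 643 other fitted values of the 9 genes under the alternatives, 87 changed sign. The cause of the changes below was not tested.

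The number of genes called for Tet1 was 809, and became 1578 by DESeq2, 316 with replicates 3 and 4 merged, 6260 with library set 3 only and 2855 without library set 2 (leaving out set 1 or set 2 was added after the data were seen). For Tet2 it was 4540, and 2822 without library set 1. For Tet2dRBD it was 2674, and 1060 with replicates merged, 6568 with set 3 only, 4201 without set 2 and 1145 without set 1. For Tet2 minus Tet2dRBD it was 3, and 29 by DESeq2, 6 with no filter, 0 with replicates merged, 91 with set 3 only and 17 without set 2. For Tet1 minus Tet2 it was 0, and 13 by DESeq2, 6 and 1 by limma on log2(TPM + 1) and log2(TPM + 0.1), 314 with set 3 only and 1 without set 2. For the inputs, Tet2dRBD against Tet2 gave 418 genes, and 858 by DESeq2, 2715 with set 3 only and 0 without the library set block. Tet1 against Tet2 input gave 4191, and 6477 with set 3 only and 54 without the library set block.

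Of the 9 genes, those called for Tet1 went from 2 to 1 with no filter and under both limma scales (Fxr1 each time), to 0 with replicates merged and to 8 with set 3 only (every gene but Igf2bp3). For Tet2 they went from 2 to 4 under both limma scales (Pum2 and L1td1 added) and to 5 with set 3 only. For Tet2dRBD they went from 1 to 3 by DESeq2 (Fxr1 and L1td1 added), to 2 with no filter, to 4 under both limma scales and to 4 with set 3 only. Over all genes, set 3 only called 6260, 6670 and 6568 of 13379 for Tet1, Tet2 and Tet2dRBD. Limma called 636, 5914 and 3853 of 13710 on log2(TPM + 1), and 590, 5933 and 4009 on log2(TPM + 0.1). No filter called 748 and 2342 of 19601 for Tet1 and Tet2dRBD, and DESeq2 3281 of 13710 for Tet2dRBD. For Tet1 minus Tet2 those of the 9 called went from 0 to 1 with set 3 only, where 314 of 13379 genes were called. Between inputs, Tet2dRBD against Tet2 went from 1 to 2 with set 3 only, where 2715 of 12999 genes were called. Without the library set block it went to 0, and Tet1 against Tet2 from 3 to 0. L1td1 reversed its near-zero difference between Tet2 and Tet2dRBD, to 0.014 and 0.019 under the limma scales, 0.42 with set 3 only and 0.30 without set 2.

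Without the replicate block, in fits that ignore the paired design, 0 genes were called for Tet1, 375 for Tet2, 46 for Tet2dRBD and 0 for Tet2 minus Tet2dRBD. Of the 9 genes, 0, 1 (Elavl1) and 0 were called for Tet1, Tet2 and Tet2dRBD, and the L1td1 difference between Tet2 and Tet2dRBD was 0.12. With the replicate block in the input comparison of Tet2dRBD and Tet2, 5 genes and 0 of the 9 were called. Same-numbered inputs of these lines deviated together, with correlations of 0.70 to 0.90.

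The count above input in every pair went, for Tet1, from 5 to 2 at 1.5 times input. For Tet2 it went from 6 to 1 at 1.5 times input and to 2 when centred on the median. For Tet2dRBD it went from 2 to 0 under either, and to 8 by group means without the replicate block.

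Leaving out 1 replicate at a time gave 0 to 1505 genes and 0 to 2 of the 9 for Tet1. The count was 0 without either Tet1 pair, 321 to 381 without Tet2 replicate 3 or 4 or Tet2dRBD replicate 3, and 1372 and 1505 without replicate 2 of Tet2 and of Tet2dRBD. It gave 2690 (without Tet2 replicate 1) to 5376 genes and 1 to 3 of the 9 for Tet2, and 795 to 3419 genes and 1 to 2 of the 9 for Tet2dRBD, with 795 without Tet2dRBD replicate 3 and 1235 without its replicate 1. It gave 0 to 14 genes and 0 of the 9 for Tet2 minus Tet2dRBD, and 0 genes and 0 of the 9 for Tet1 minus Tet2. It gave 33 to 1516 genes and 0 to 2 of the 9 for Tet2dRBD against Tet2 input, where every left-out input moved the count by over 1.5 times. It gave 1737 to 5822 genes and 3 to 4 of the 9 for Tet1 against Tet2 input, the lowest without Tet1 input 2. The counts of the 9 genes above input in every pair were 5 to 5 for Tet1, 6 to 6 for Tet2 and 2 to 5 for Tet2dRBD (5 without replicate 2 and 4 without replicate 4). The matching shares of all genes are not given here. The Tet2 minus Tet2dRBD difference lay between -0.25 and 0.48 for Fxr1 and between -0.34 and 0.34 for L1td1. A Tet1 line with 1 pair left was assumed to vary like the other lines.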
